A study of Mus musculus with 12 samples.

Results

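The transcripts described here are 5 genes of skeletal muscle measured in mouse kidney: Acta1, Myl1, Atp2a1, Ckm and Mylpf. They were chosen by name from the symbol column of the array's annotation, after an earlier look at the same data had shown several of them lower in the diabetic kidneys at 16 weeks. Together they have 8 probe sets, out of 12422 probe sets of genes on the array, and 5 of the 8, 1 for each gene, passed the filter on low values explained below. The 5 genes compare with 8251 genes that a single symbol names. Values of the 16 week arrays of db/m and db/db mice chose the genes, so the 16 week difference is described without a test. The same holds for the comparison of ages within db/m, which shares the 16 week db/m arrays.

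The study set db/db against db/m kidneys at ages of 8 and 16 weeks, with 3 arrays in each of the 4 groups and 12 arrays in all. The db/db mouse carries the diabetes mutation of the leptin receptor on both copies of the gene and becomes obese and diabetic, and the db/m mouse carries it on a single copy and is the lean control. The labels name no treatment, and they call the arrays biological replicates without saying which part of the kidney was taken or how it was freed of neighbouring tissue. A keyword in the labels reads db/m on all samples, so groups follow the titles.

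Skeletal muscle contracts when calcium released from the sarcoplasmic reticulum lets myosin heads pull on thin filaments of actin. Acta1 encodes the actin of these thin filaments in adult skeletal muscle, Myl1 the essential and Mylpf the regulatory light chain of fast skeletal myosin. Atp2a1 encodes SERCA1, the pump that returns calcium to the sarcoplasmic reticulum of fast fibres, and Ckm the muscle creatine kinase, which rebuilds ATP from phosphocreatine. A kidney has smooth muscle in its vessels but no skeletal muscle fibres of its own, and it lies against the muscles of the back wall and is wrapped in fat.

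All 5 genes had a promoter entry in RefSeq (GRCm38.p6), and the 250 bases before the start are shown for 3 of them, because Acta1 and Myl1 varied together across the arrays and the probe sets of Ckm ran apart. Capitals mark matches, on either strand, to motifs known from muscle promoters: the E-box (CANNTG), which myogenic factors such as MyoD bind, the M-CAT element (CATTCC), which TEAD factors bind, and the CArG box, which serum response factor binds. The motifs printed here do not overlap.
Acta1 (minus strand, chr8:123894776-123895025): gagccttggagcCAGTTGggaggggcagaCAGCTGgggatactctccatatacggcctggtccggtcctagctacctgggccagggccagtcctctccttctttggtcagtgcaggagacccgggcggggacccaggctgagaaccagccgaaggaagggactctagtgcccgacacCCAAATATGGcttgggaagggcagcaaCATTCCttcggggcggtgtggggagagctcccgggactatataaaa
Myl1 (minus strand, chr1:66945057-66945306): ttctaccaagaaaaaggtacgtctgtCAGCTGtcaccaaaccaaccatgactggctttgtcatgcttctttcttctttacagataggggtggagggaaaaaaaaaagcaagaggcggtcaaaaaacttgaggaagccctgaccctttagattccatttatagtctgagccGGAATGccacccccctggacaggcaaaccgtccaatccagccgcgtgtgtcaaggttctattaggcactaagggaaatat
Ckm (plus strand, chr7:19410844-19411093): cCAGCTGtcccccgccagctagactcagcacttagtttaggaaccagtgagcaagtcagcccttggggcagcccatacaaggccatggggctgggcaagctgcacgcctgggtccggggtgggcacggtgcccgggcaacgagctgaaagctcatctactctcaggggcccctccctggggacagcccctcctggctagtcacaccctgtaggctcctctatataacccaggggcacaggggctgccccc

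The Acta1 window held 2 E-boxes, 1 M-CAT element and 1 CArG box, and the Myl1 window 1 E-box and 1 M-CAT element on the opposite strand (GGAATG). The windows of Ckm, Atp2a1 and Mylpf held 1 E-box each. An E-box stood in 66.2% of 32851 promoter windows of the same length, an M-CAT element in 12.6% and a CArG box in 1.47%. The MEF2 site, which 2.92% of the windows held, had no match in the 5 windows. These matches are descriptions of letters and show no binding.

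Facts of all arrays can be given briefly. Between arrays of 1 group the correlation was 0.895 to 0.971, and between groups it was 0.812 to 0.964. The 3' to 5' signal ratio of the actin controls, a sign of RNA quality and labelling, ranged from 1.46 to 2.82 in db/m and from 1.20 to 1.85 in db/db. The labelled tissue was checked by its markers. Summed over 19 probe sets of 16 nephron genes such as Umod, Slc34a1 and Kap, intensity was 300874 to 388343 on every array. Values are intensities after quantile normalisation between the 12 arrays. The 30th percentile, an intensity of 155, served as a floor, and values below it have no order. For testing, 3 or more arrays had to exceed the 50th percentile (475), and 6949 probe sets did.

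Acta1, the thin filament actin, showed the widest range of the 5 genes (100381_at). On the db/m arrays of 16 weeks its intensity was 2616, 7472 and 1563 in replicates 1, 2 and 3. On the db/m arrays of 8 weeks it was 111, 1101 and 305, so that replicate 1 lay below the floor. All 6 db/db arrays lay below the floor, with 21.3, 108 and 142 at 8 weeks and 26.6, 32.6 and 39.5 at 16 weeks. The 3 db/m arrays of 16 weeks were therefore the highest of the 12, and the db/m arrays of 8 weeks overlapped the db/db arrays. With values below the floor raised to it, the geometric mean was 3126 in 16 week db/m kidneys, at least 20.1-fold the level in db/db kidneys of that age, and at least 13-fold without replicate 2. Within the 16 week db/m group the highest array was 4.78-fold the lowest.

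Of the light chains of fast myosin, Myl1 (92541_at) followed Acta1 closely. Its intensity was 1099, 4543 and 1048 in the 16 week db/m kidneys and 163, 1027 and 511 in the 8 week db/m kidneys. The db/db kidneys had 263, 56.8 and 301 at 8 weeks and 177, 309 and 373 at 16 weeks. Again the 3 db/m arrays of 16 weeks were above all others, replicates 1 and 3 only narrowly. Geometric means at 16 weeks were 1736 with db/m and 273 with db/db, a 6.36-fold difference that was 3.93-fold without db/m replicate 2. At 8 weeks they were 441 and 231, and the groups overlapped.

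The regulatory light chain Mylpf (92881_at) had a narrower range and was above the floor on all 12 arrays. Intensity was 770, 1332 and 528 in db/m kidneys of 16 weeks and 401, 577 and 563 in those of 8 weeks. It was 480, 370 and 462 in db/db kidneys of 8 weeks and 318, 400 and 514 in those of 16 weeks. The db/m arrays of the 2 ages overlapped, and at 16 weeks the lowest db/m array lay just above the highest db/db array. Geometric means at 16 weeks were 815 and 402, a 2.02-fold difference, and 1.58-fold without db/m replicate 2.

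Atp2a1, the calcium pump of fast fibres, was above the floor on all arrays in 1 of its probe sets (98126_s_at). Its intensity was 724, 2041 and 379 in db/m kidneys of 16 weeks and 323, 568 and 222 in db/m kidneys of 8 weeks. In db/db kidneys it was 267, 387 and 324 at 8 weeks and 323, 254 and 223 at 16 weeks. Replicate 2 of the 16 week db/m group was the highest array by a wide margin, and replicate 3 lay within the range of the 8 week db/m arrays. Geometric means at 16 weeks were 824 for db/m and 263 for db/db, a 3.13-fold difference that was 1.99-fold without that replicate.

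Ckm, the muscle creatine kinase, ran the other way in its kept probe set (160175_at). Intensity was lowest in db/m kidneys of 16 weeks, at 300, 127 and 332, and below the floor in replicate 2, the array on which Acta1 and Myl1 were highest. In db/m kidneys of 8 weeks it was 394, 299 and 489, in db/db kidneys of 8 weeks 457, 516 and 524, and in db/db kidneys of 16 weeks 461, 375 and 369. At 16 weeks all db/db arrays were above all db/m arrays, with geometric means of 400 and 249. The probe set was kept with the fewest arrays the filter allows, 3 above the threshold, and the 2 highest of its values outside them were 461 and 457.

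The second probe sets of Ckm, Atp2a1 and Mylpf were not kept, and each was highest in the same kidney. The other Ckm probe set (161569_f_at) had 332 in replicate 2 of the 16 week db/m kidneys and 18.0 to 80.7 on the other 11 arrays, all below the floor, so the 2 Ckm probe sets disagreed on that array. The other Mylpf probe set (162101_f_at) had 164 there and 4.62 to 19.3 elsewhere. The other Atp2a1 probe set (162223_f_at) had 786 there, 227 in replicate 1 and 106 in replicate 3 of that group, and 20.8 to 58.7 on the remaining arrays. The ending f_at marks probe sets whose probes can match other members of a gene family, and the ending s_at those shared by several transcripts. Levels of different probe sets are not comparable with each other.

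**Figure D1:**
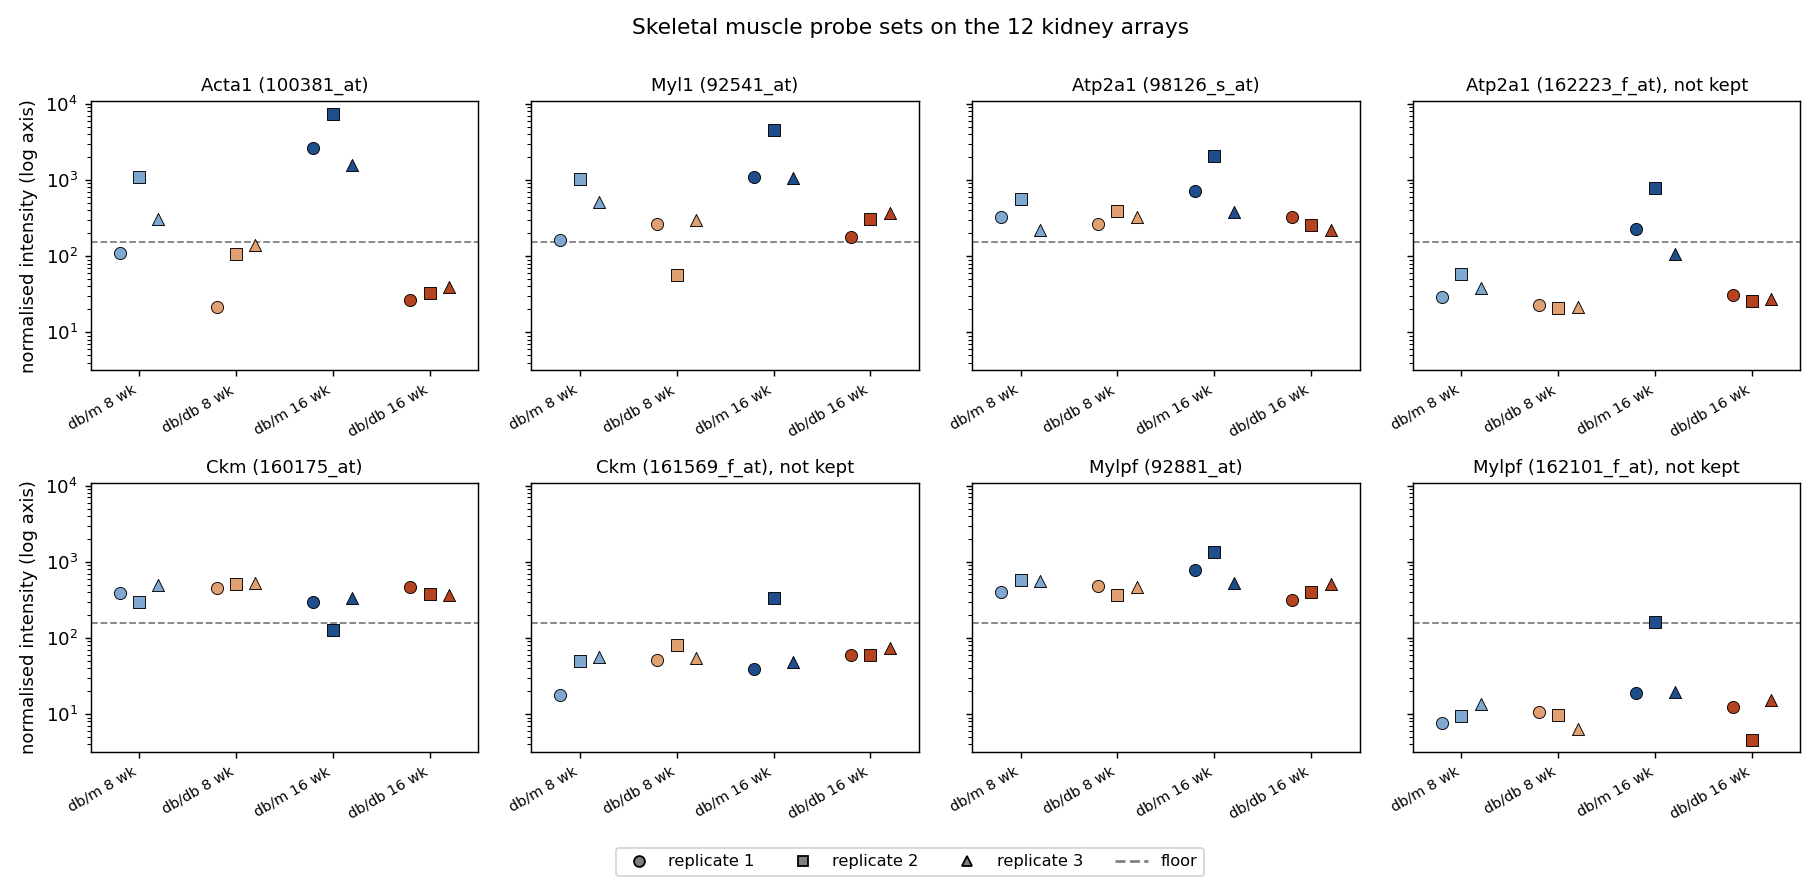
Normalised intensity (log axis) of the 8 probe sets of the 5 muscle genes on each of the 12 arrays, by group (colour) and replicate (marker), with the floor of 155 as a dashed line. The square of the 16 week db/m group is the highest point in 7 panels and the lowest in the panel of Ckm 160175_at.

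By array, 7 of the 8 probe sets were highest on replicate 2 of the 16 week db/m group. For 2 of the 7, the second probe sets of Ckm and Mylpf, it was the only array above the floor, as it was for 0.708% of all probe sets, so these could be highest nowhere else. Of the 6 probe sets above the floor on another array 5 were highest there (83.3%), beside 8.08% of 10556 probe sets in all. The array is 1 of those that chose the genes, and nothing is read from this count. Among the 6 arrays of 8 weeks, replicate 2 of the db/m group was the highest for the 4 kept probe sets other than that of Ckm. Summed over the 8 probe sets, intensity was 5793, 16796 and 4024 in the 16 week db/m kidneys and 1446, 3691 and 2197 in the 8 week db/m kidneys. The db/db kidneys spanned 1550 to 1835 at 8 weeks and 1408 to 1636 at 16 weeks. The spread between arrays of 1 group was thus large in both db/m groups and small in both db/db groups. The actin 3' to 5' ratio moved with this order in part. It was 2.65, 2.82 and 2.04 in replicates 1, 2 and 3 of the 16 week db/m group and 1.62, 2.14 and 1.46 in those of the 8 week db/m group, so replicate 2 had the highest ratio of its age in both. Its part in the order of the arrays was not tested. In whole tissue, fewer cells of a type and less RNA per cell cannot be told apart.

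In the genotype test at 8 weeks, whose arrays had not chosen the genes, 0 of the 5 genes passed an adjusted p of 0.05 with limma, or an unadjusted p of 0.05. The genes entered this test partly through the 16 week db/m arrays, which gave 3 of the 4 values of Acta1 above the filter and 2 of the 3 of Atp2a1. The spread in this test was estimated from all 12 arrays, those of 16 weeks included. Of all probe sets tested 19.0% passed, 10.5% lower and 8.55% higher in db/db kidneys. The log2 difference, db/db minus db/m, was -1.27 for Acta1 (SE 0.64, n = 3 and 3, limma adjusted p 0.183) and -0.94 for Myl1 (SE 0.68, limma adjusted p 0.350). It was -0.22 for Mylpf (SE 0.31, adjusted p 0.643), -0.09 for Atp2a1 (SE 0.51, adjusted p 0.918) and 0.37 for Ckm (SE 0.27, adjusted p 0.360). For Acta1 no db/db array and 2 of 3 db/m arrays were above the floor, so its value and SE depend on the floor. The value bounds the difference in neither direction. The 95% intervals were -2.42 to 0.55 for Myl1, -0.89 to 0.45 for Mylpf, -1.21 to 1.03 for Atp2a1 and -0.23 to 0.96 for Ckm. For Acta1 the same calculation gave -2.67 to 0.14, but values set to the floor carry no spread. That range cannot be read as a 95% interval. A difference at 8 weeks is not excluded for any of the 5 genes. Without db/m replicate 2 of 8 weeks, Acta1 moved to -0.49, Myl1 to -0.33 and Atp2a1 to 0.27 (limma adjusted p 0.567, 0.782 and 0.778). On values as the authors scaled them, Atp2a1 and Mylpf turned to 0.25 and 0.10, and neither passed. With the actin 3' to 5' ratio of each array as a covariate all 5 changed sign, to 0.10 for Acta1, 0.19 for Myl1, 0.31 for Mylpf, 0.94 for Atp2a1 and -0.16 for Ckm, with limma adjusted p of 0.291 to 0.940.

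At 16 weeks the log2 differences were -4.33 for Acta1, -2.67 for Myl1, -1.65 for Atp2a1, -1.02 for Mylpf and 0.68 for Ckm. These values chose the genes and are given as a description. In this comparison 33.9% of all probe sets passed, 18.9% lower and 15.0% higher, and the 3 arrays of each genotype did not overlap for 42.7%. All 5 genes were among the latter, 4 lower (23.3% of all probe sets) and Ckm higher (19.5%), and nothing is read from that count. Without db/m replicate 2 the differences were -3.70, -1.98, -0.99, -0.66 and 0.34 in the same order, so each kept its direction and shrank. The mean over the 5 genes was -1.80 at 16 weeks and -0.43 at 8 weeks. With the actin ratio as a covariate these means were -0.76 and 0.28, and Ckm turned to -0.09 at 16 weeks. The ratio differs between the genotypes, and its part in the result was not tested beyond that fit.

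**Figure D2:**
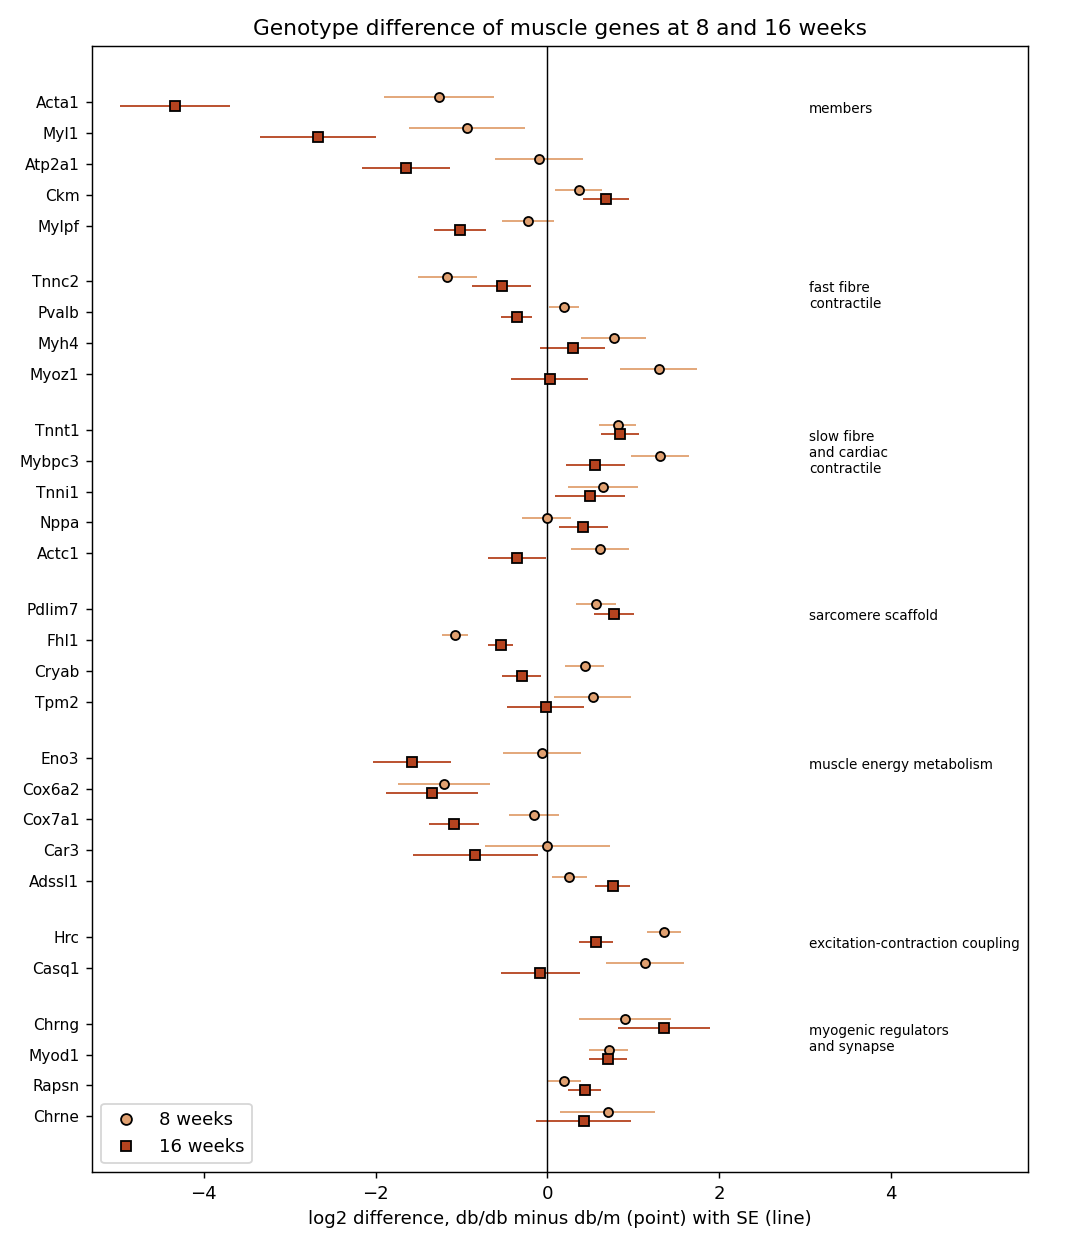
Log2 difference, db/db minus db/m, with its SE, at 8 weeks (circles) and 16 weeks (squares) for the 5 muscle genes (top) and for the kept genes of 6 other muscle lists chosen by size at 16 weeks. Acta1 reaches -4.33 at 16 weeks, while the other lists scatter on both sides of 0.

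Between the ages, 16 minus 8 weeks, the log2 difference in db/m kidneys was 3.07 for Acta1 and 1.98 for Myl1, and for these genes the 3 arrays of 16 weeks lay above the 3 of 8 weeks (11.5% of all probe sets did so). Atp2a1 and Mylpf, at 1.26 and 0.69, overlapped between the ages, and so did Ckm at -0.63. In this comparison 0.849% of all probe sets passed, and since the 16 week db/m arrays had chosen the genes no test is given. In db/db kidneys, where 14.1% of all probe sets passed, the differences of the 5 genes between the ages lay between -0.32 for Ckm and 0.24 for Myl1. Acta1 was below the floor on all 6 arrays of that comparison and has no difference to report.

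Over the 12 arrays, the 7 probe sets other than Ckm 160175_at were positively correlated in all 21 of their pairs, at 0.657 or above. The second probe sets of Ckm and Mylpf were above the floor on replicate 2 of the 16 week db/m group alone. Pairs with either of them therefore rest on that array, which had chosen the genes, and nothing is read from the count of pairs. Acta1 and Myl1 had a Pearson correlation of 0.949, Acta1 and Mylpf 0.877, and Acta1 and Atp2a1 0.868. Within the groups, with group means removed, these were 0.877, 0.720 and 0.794. The 2 probe sets of Atp2a1 correlated at 0.892. The second was above the floor on 2 arrays only, replicates 1 and 2 of the 16 week db/m group (227 and 786). That value therefore rests on arrays that had chosen the genes. The 2 probe sets of Mylpf had 0.786, which rests on 1 value of 164 in the second probe set, against the floor of 155. Ckm 160175_at was negatively correlated with each of the other 7, from -0.881 with Myl1 to -0.813 with the second Ckm probe set. These correlations describe 12 arrays in which replicate 2 of the 16 week db/m group is extreme, and many values at the floor are tied.

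Other genes of skeletal muscle were read from 6 lists with 105 symbols. Of these 77 had a probe set and 29 were kept. At 8 weeks db/db kidneys had 4 of the 29 higher and 2 lower (median log2 difference 0.36, against -0.01 over all probe sets tested), and at 16 weeks 5 were higher and 3 lower (median -0.02, against -0.03). These shares of 29 genes stood beside 8.55% higher and 10.5% lower of all probe sets at 8 weeks and 15.0% higher and 18.9% lower at 16 weeks. With age in db/m kidneys 1 of the 29, Hrc, passed.

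In the list of fast fibre contractile genes 9 of 11 symbols had a probe set and 4 were kept. Tnnc2, the calcium-binding troponin of fast fibres (162325_f_at), was lower in db/db kidneys at 8 weeks by -1.17 (SE 0.34, limma adjusted p 0.0359) and had -0.53 at 16 weeks. That call ended without any of 4 single arrays of 8 weeks, namely db/m replicates 2 and 3 (limma adjusted p 0.0857 and 0.118) and db/db replicates 1 and 3 (0.134 and 0.058). The filter removed 8 probe sets of this list, which are described here after their values were seen. Those of Myh2 (92218_at) and a second one of Tnnc2 (93259_at) were above the floor on no array. Myh4, the heavy chain of the fastest fibres (98488_at), had 475, 1705 and 274 in db/m kidneys of 16 weeks, 43.3, 296 and 31.1 in those of 8 weeks and 24.3 or less on all db/db arrays. Tnnt3, the fast troponin T (92885_at), had 294, 876 and 371 in db/m kidneys of 16 weeks and 124 or less on all db/db arrays. Tnni2 (93532_at, fast troponin I) and Myh1 (98308_at, another fast heavy chain) were above the floor on replicate 2 of the 16 week db/m group alone, at 388 and 376. Actn3, the alpha-actinin of fast fibres, had probe sets that ran apart. One (100879_at) had 361, 777 and 305 in db/m kidneys of 16 weeks and 91.2 to 274 on the db/db arrays, and the other (162164_f_at) had 198, 498 and 269 in those db/m kidneys, 356, 348 and 81.2 in db/db kidneys of 8 weeks and 138, 333 and 232 in those of 16 weeks. A second Myh4 probe set (161545_r_at) was kept and did not share the pattern of the first. It had 439 on replicate 2 of the 16 week db/m group and 344 to 476 on the group's 3 arrays. Its difference was 0.77 at 8 weeks and 0.30 at 16 weeks (limma adjusted p 0.175 and 0.572). Myoz1 (104555_at), also kept, had 1.30 at 8 weeks and 0.03 at 16 weeks (limma adjusted p 0.0639 and 0.965). Its highest array was replicate 3 of the 16 week db/db group, at 930.

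Probe sets above the floor on at least 1 array other than replicate 2 of the 16 week db/m group were counted by whether that replicate was their highest array. In the fast fibre list it was for 5 of 9, or 55.6%. Leaving out Pvalb, which is also made in the distal tubule of the kidney and had 6236 to 14147 on all arrays (96719_i_at), the count was 5 of 7 (71.4%). The share was 14.3% for calcium release genes (1 of 7) and for muscle energy metabolism (2 of 14), 10.5% for the sarcomere scaffold (2 of 19), 8.33% for slow fibre and cardiac genes (1 of 12) and 6.67% for myogenic regulators and the synapse (1 of 15), beside 8.08% over all probe sets. Over the 6 lists together it was 15.8% (12 of 76), and 8 further probe sets were above the floor on that replicate alone. Mb, the oxygen store of slow and cardiac fibres, had no value above the floor on any array in either of its probe sets.

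**Figure D3:**
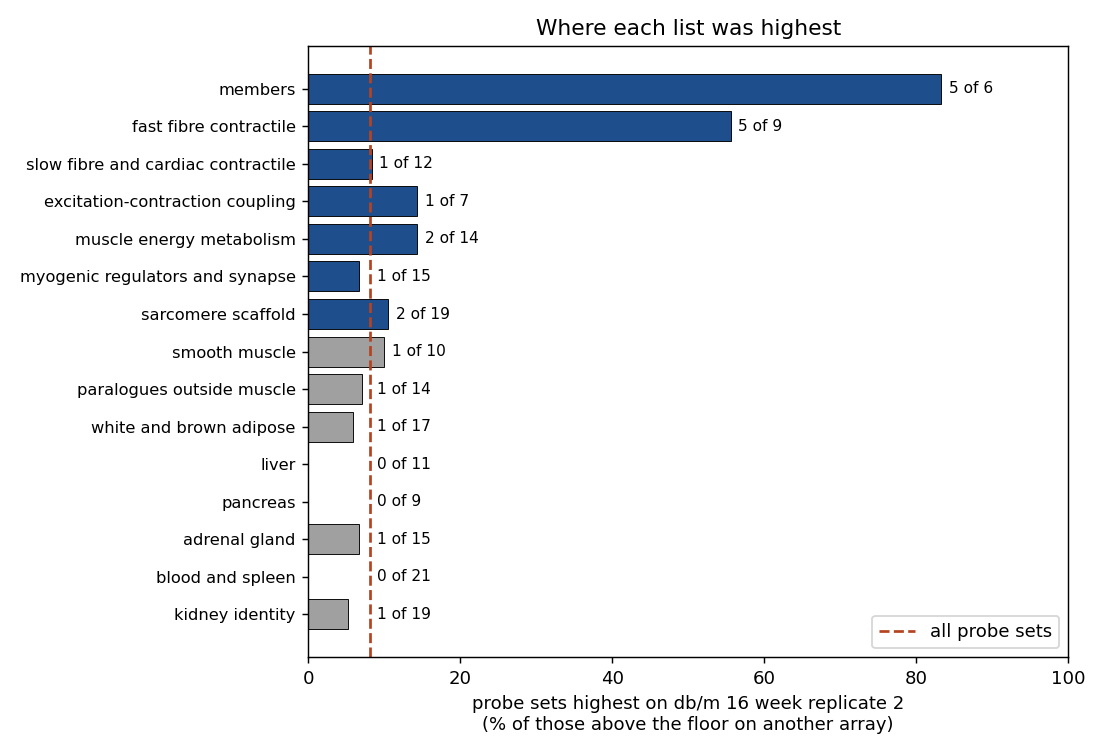
Share of each list's probe sets, among those above the floor on an array other than replicate 2 of the 16 week db/m group, whose highest value was on that replicate (blue, muscle lists; grey, other lists), with the share over all probe sets (8.08%) as a dashed line. The 5 muscle genes (5 of 6) and the fast fibre list (5 of 9) have the longest bars.

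The enzymes and mitochondrial subunits of muscle had 10 kept genes of 18, of which 2 passed lower and 1 higher at 16 weeks. Beside these, 18.9% of all probe sets passed lower and 15.0% higher at that age. At 8 weeks 0 of the 10 passed, beside 19.0% of all probe sets. Eno3, the muscle enolase (96344_at), had 1090, 2047 and 717 in db/m kidneys of 16 weeks and 423, 379 and 378 in db/db kidneys of that age. Its difference at 16 weeks was -1.57 (SE 0.46, limma adjusted p 0.0224). The call ended without db/m replicate 2 (-1.17, adjusted p 0.0866) and without db/db replicates 2 and 3 (adjusted p 0.0649 and 0.0564). Cox7a1, a muscle isoform of a cytochrome oxidase subunit, fell by 1.09 (SE 0.29, limma adjusted p 0.0153), with calls that ended without db/m replicate 3 (0.0576) and db/db replicate 3 (0.0552), all of 16 weeks. It was not high on db/m replicate 2 (426, against 512 and 693 in replicates 1 and 3). Adssl1, the muscle form of an enzyme of the purine nucleotide cycle, rose by 0.76 (SE 0.20, adjusted p 0.0158), and this ended without db/m replicate 1 (0.0597) and db/db replicate 2 (0.0566).

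Of 5 kept slow fibre and cardiac genes 2 passed higher in db/db kidneys at 8 weeks and 1 at 16 weeks, and none passed lower. The shares over all probe sets were 8.55% higher and 10.5% lower at 8 weeks, and 15.0% higher and 18.9% lower at 16 weeks. Tnnt1, the slow troponin T (101383_at), rose at both ages, by 0.82 (SE 0.22, limma adjusted p 0.0248) and 0.85 (SE 0.22, limma adjusted p 0.0135). On replicate 2 of the 16 week db/m group it had 337, within the 292 to 362 of its group. The 8 week call of Tnnt1 ended without db/m replicate 1 or 2 or db/db replicate 3 of that age (adjusted p 0.0745 to 0.0981), and the 16 week call without db/db replicate 2 (0.0566). Mybpc3, the cardiac myosin-binding protein, rose by 1.31 at 8 weeks (SE 0.34, limma adjusted p 0.0225), a call that ended without any of db/m replicates 1 and 3 and db/db replicates 1 and 2 of that age (adjusted p 0.0540 to 0.0904). Actc1, the cardiac actin (101029_f_at), did not pass at either age and was highest, at 2457, on replicate 2 of the 16 week db/m group, beside 754 to 1540 on the others. Its f_at ending means that probes may also match Acta1.

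Of 2 kept genes of calcium release 1 passed higher at each age. Of 4 kept scaffold genes 1 passed lower at 8 weeks, and 1 higher and 1 lower at 16 weeks. Of 4 kept myogenic and synapse genes 1 passed higher at each age. Beside these, 8.55% of all probe sets passed higher and 10.5% lower at 8 weeks, and 15.0% and 18.9% at 16 weeks. Hrc, a calcium-binding protein of the sarcoplasmic reticulum (92371_at), rose by 1.36 at 8 weeks (SE 0.20, limma adjusted p 0.00188), which held without each array in turn. Its 3 db/m arrays of 8 weeks had 196, 196 and 200 and those of 16 weeks 477, 407 and 405. The 16 week difference of 0.56 (limma adjusted p 0.0489) ended without any of 11 single arrays (adjusted p 0.0550 to 0.158). Casq1, calsequestrin of fast fibres (102426_at), did not pass, but was highest on replicate 2 of the 16 week db/m group, with 870, 1593 and 474 in that group. It was not low in db/db kidneys, with 611, 807 and 1132 at 16 weeks and 761, 529 and 652 at 8 weeks. The 8 week db/m kidneys had 134, 358 and 441. Its difference was 1.14 at 8 weeks and -0.08 at 16 weeks (limma adjusted p 0.0991 and 0.909). Fhl1, a LIM protein that many tissues make, had kept probe sets that disagreed. In 97498_at it fell by 1.08 at 8 weeks (SE 0.15, limma adjusted p 0.00140), which held without each array in turn, and by 0.54 at 16 weeks (adjusted p 0.0174, and 0.0546 without db/m replicate 1 of 16 weeks). In 97500_g_at the difference was 0.00 at 8 weeks and 0.51 at 16 weeks (limma adjusted p 0.995 and 0.0673). Pdlim7 rose by 0.78 at 16 weeks in 160837_at (SE 0.23, limma adjusted p 0.0249) and by 2.03 in 102845_at (adjusted p 0.00311). The first is a call that ended without any of db/m replicates 1 and 3 and db/db replicates 2 and 3 of that age (0.0526 to 0.0886). Of the myogenic regulators and synapse genes, Myod1, the master regulator of the lineage, had a difference of 0.71 at both ages (SE 0.22, limma adjusted p 0.0455 at 8 and 0.0308 at 16 weeks), and the calls ended without any of 8 and of 4 single arrays (adjusted p 0.0562 to 0.147 and 0.0663 to 0.110).

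Lists of other tissues around the kidney showed where else these arrays differed. Replicate 2 of the 16 week db/m group was the highest array for 1 of 17 fat probe sets, 1 of 15 adrenal, 0 of 11 liver, 0 of 9 pancreas, 0 of 21 blood and spleen and 1 of 10 smooth muscle probe sets. The 3 kept fat genes with the largest 16 week difference were Lpl, Fabp4 and Lep. Lpl had -1.78 (SE 0.27, limma adjusted p 0.00121), and Fabp4 and Lep had 0.85 and 0.67 (limma adjusted p 0.0868 and 0.0579). None of these passed between the ages in db/m kidneys (limma adjusted p 0.894 to 0.993). Of the 7 kept fat genes, Adipoq among them, 0 passed between the ages in db/m kidneys, beside 0.849% of all probe sets. Their median log2 difference was -0.02. Values of some other fat genes, not named by that rule, are given only as a description. Adipoq, the fat cell hormone adiponectin (99104_at), had 941, 551 and 208 in 16 week db/m kidneys, 16.5, 74.4 and 95.7, all below the floor, in 8 week db/m kidneys, and 2379 in replicate 1 of the 8 week db/db group, where the summed member level was 1572. Cidea and Ucp1 (99507_at), genes of brown fat, were highest in replicate 1 of the 16 week db/m group, at 1027 and 520. In replicates 2 and 3 of that group Cidea had 424 and 51.8, and in the 8 week db/m kidneys 46.4 to 94.2. The summed fat level spanned 25973 to 38570 and 25269 to 32013 in db/m kidneys of 8 and 16 weeks, and 27670 to 53875 and 14598 to 24956 in db/db kidneys. The part of adjoining tissue in the muscle values was not tested.

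**Figure D4:**
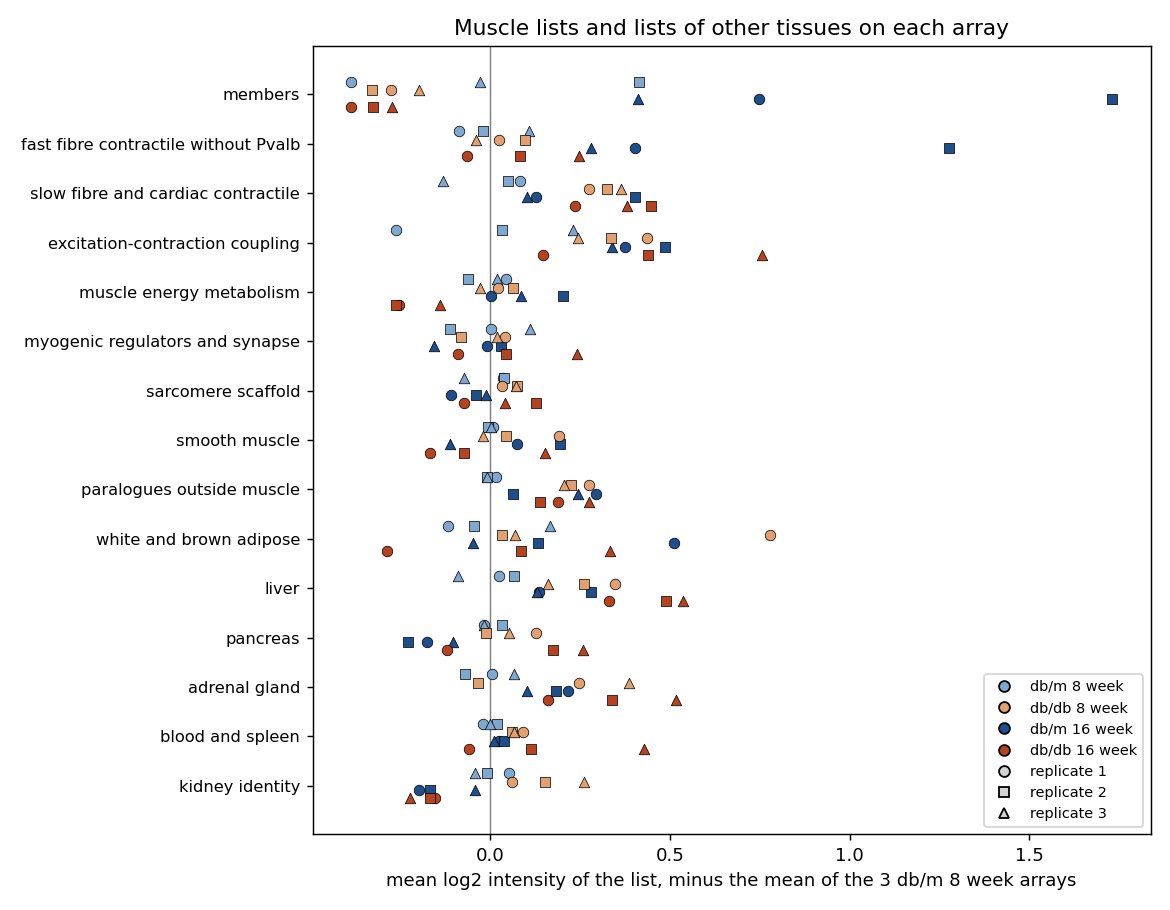
Mean log2 intensity of each list on each array, minus the mean of the 3 db/m arrays of 8 weeks, by group (colour) and replicate (marker). The 16 week db/m square lies at 1.73 for the 5 muscle genes and at 1.28 for the fast fibre list without Pvalb, and from -0.23 to 0.49 for the other lists.

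Smooth muscle genes, and relatives of the 5 genes that are also made outside skeletal muscle, were read in the same way. Smooth muscle genes of the vessel wall summed to 13147 to 14403 on the 16 week db/m arrays and to 11299 to 15740 on the arrays of the other groups. Of 9 kept smooth muscle genes 2 passed lower and 0 higher in db/db kidneys at 16 weeks, beside 18.9% lower and 15.0% higher of all probe sets. Myh11, the heavy chain of smooth muscle myosin, fell by 0.93 (SE 0.26, limma adjusted p 0.0177), with 803, 955 and 673 in db/m kidneys and 335, 491 and 454 in db/db kidneys of that age, and the call ended without db/m replicate 2 (0.0648). Tpm1, a tropomyosin, fell by 0.48 (SE 0.13, limma adjusted p 0.0194). Their correlation with the mean of the 5 kept members was 0.710 and 0.662 over the 12 arrays, the highest of the list. The other 7 spanned -0.417 (Acta2) to 0.407 (Smtn), with Actg2 at -0.383 and Des at -0.33. With group means removed the order changed. Myh11 and Tpm1 then had 0.053 and 0.368, Des and Actg2 were the highest at 0.539 and 0.503, and Smtn was the lowest at -0.356. Des, with the list's largest 16 week difference, had 1.05 and did not pass (limma adjusted p 0.0703). At 8 weeks Actg2 and Mylk were higher in db/db kidneys by 1.01 and 0.53 (limma adjusted p 0.00734 and 0.0208), and Tpm1 had -0.445 (0.0399). The 14 probe sets of these related actins, myosin light chains, calcium pumps and creatine kinases summed to 82564 to 93028 and 80196 to 93120. Among them Atp2a2, the calcium pump SERCA2 of most tissues, was lower in db/db kidneys at 16 weeks by -1.30 (SE 0.30, limma adjusted p 0.00827), which held without each array in turn, beside -1.65 for Atp2a1. It was the 1 of 8 kept relatives that passed at 16 weeks, beside 33.9% of all probe sets. Actb, the cytoplasmic actin, had 2 kept probe sets, with -0.26 (101578_f_at) and 1.01 (95705_s_at) at 16 weeks (limma adjusted p 0.552 and 0.0782), and the latter rose by 1.55 at 8 weeks (adjusted p 0.0235). The light chains Myl12b and Myl6b of this list correlated with the mean of the members at 0.740 and 0.711, and Actg1 and Ckb at -0.283 and 0.011. With group means removed these were 0.677, 0.364, -0.382 and -0.188, in the same order.

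The genes whose pattern was most like the mean of the 5 kept members were found among all kept probe sets, by Pearson correlation over 12 arrays. The closest was 93028_at, at 0.988 (rank correlation 0.923, and 0.957 without the 2 arrays farthest from the median, replicates 1 and 2 of the 16 week db/m group). Its annotation lists several symbols, so no gene is named. It had 1511, 4894 and 1019 in db/m kidneys of 16 weeks, 268, 689 and 463 in those of 8 weeks and 194 to 331 in the 6 db/db kidneys. The members themselves correlated with this mean at 0.988 (Acta1), 0.971 (Myl1), 0.930 (Mylpf), 0.893 (Atp2a1) and -0.883 (Ckm). Each member is part of the mean, so these values are not comparable with that of 93028_at, which is not. Without those 2 arrays Atp2a1 and Ckm had 0.559 and -0.624.

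The next 9 probe sets came from genes made in many tissues and varied far less between arrays. Kdelr1, a receptor that returns proteins to the endoplasmic reticulum, correlated at 0.944, and Cd47, a surface protein that protects cells from phagocytosis, at 0.920. Eng, the endothelial co-receptor endoglin, followed at 0.906, then Ap3b1 at 0.904, Trim28 at 0.893, Polr2a at 0.891, Wdr81 and Wwc1 at 0.889 and Dnajc8 at 0.883. Kdelr1 spanned 6090 to 10338 and Cd47 1876 to 3899 over the 12 arrays. Eng had 10153 to 14961 in db/m kidneys of 16 weeks and 4996 to 5776 in db/db kidneys of that age. With group means removed, 93028_at again came first (0.952), and of the other 9 only Cd47 was shared with the list above (0.855). The 2 next were Tbc1d10a at 0.899 and Acsm2 at 0.892, followed by Thrap3, Glmp, Islr, B2m, Klf9 and BC004004 at 0.843 to 0.872. All these values describe 12 arrays, and the group mean of genotype and age is part of the first measure.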

How the data were processed

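The authors deposited 1 intensity per probe set and array on a linear scale, for 12488 probe sets and 12 arrays. From the values, each array had been scaled so that its trimmed mean agreed, and medians were 413 to 556. Total RNA was labelled by standard Affymetrix procedures, per the labels. The authors' software is not given in the sources used here. No detection calls were used. The 66 control probe sets were left out. Symbols came from the platform annotation, updated through a GRCm38.p6 gene table: 10833 probe sets had 1 symbol, 396 several and 1193 none.

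The 12 arrays were quantile normalised, raised to a floor at the 30th percentile, put on the log2 scale, and filtered at the 50th percentile on at least 3 arrays. limma 3.58.1 (R 4.3.3) fitted 1 mean per group (8 residual and 3.34 prior degrees of freedom). Tests were two-sided, with Benjamini-Hochberg adjustment over 6949 probe sets and a threshold of 0.05. A gene of a list was represented by its kept probe set with the highest mean. The number of arrays limits the precision. P-values measure the spread between samples that the labels call biological replicates. Replicate numbers carried no pairing. After removal of group means, 1 of 18 correlations between same-numbered arrays exceeded 0.1, and their mean was -0.047.

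The members and lists were chosen with earlier results of these data known. Named genes are the 5 members, up to 5 kept genes of each other muscle list and up to 3 of each other list with the largest 16 week difference, and the 10 most like in pattern by each measure. Not all of these are printed. Alternatives changed the scaling, floor, filter, variance model, arrays and covariates, and left out each array in turn.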

Additional observations from a re-analysis of the deposited data

Results flagged for a closer look

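In 3 genes named by the rule, the 3 db/db arrays lay on one side of the 3 db/m arrays' mean at 8 weeks and on the other side at 16 weeks. The difference between the genotype effects, 16 minus 8 weeks, was -0.55 for Pvalb (96719_i_at), a calcium-binding protein of fast fibres and of the distal tubule, -0.73 for Cryab, a small heat shock protein of the sarcomere scaffold, and 0.66 for Ighm, the heavy chain of immunoglobulin M. The limma adjusted p of the interaction was 0.315, 0.288 and 0.323, so none passed. The other kept Pvalb probe set (96720_f_at) had -0.88 for the interaction (limma adjusted p 0.164). Its genotype difference was 0.32 at 8 weeks and -0.56 at 16 weeks (limma adjusted p 0.223 and 0.0333). Ighm is given in the probe set 93583_s_at, and in its other kept probe set (99420_at) the genotype difference was 0.00 at 8 weeks and -1.28 at 16 weeks. No group of 3 arrays was screened for outlying samples.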

How the results depend on the processing

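Leaving out 1 array at a time, the mean log2 difference of the 5 members was -0.74 to -0.1 at 8 weeks and -2.1 to -1.4 at 16 weeks, and with limma 0 members passed at 8 weeks under each alternative run. Counts of all probe sets passing were 662 to 1828 at 8 weeks and 1457 to 3067 at 16 weeks. Other muscle genes passing were 2 to 5 higher and 1 to 2 lower at 8 weeks, and 0 to 6 higher and 2 to 4 lower at 16 weeks. Of the 10 genes of like pattern 4 to 9 were shared, and 1 to 7 with group means removed. Single genes that changed sign were Atp2a1 at 8 weeks (-0.41 to 0.27) and, at 16 weeks, Actc1 (-0.59 to 0.04), Casq1 (-0.52 to 0.36), Chrne (-0.21 to 1.13), Myoz1 (-0.32 to 0.32) and Tpm2 (-0.41 to 0.2).

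On values as the authors scaled them, 8 other muscle genes were higher and 1 lower at 8 weeks, 6 genes of like pattern were shared by each measure, and the log2 difference was 0.25 for Atp2a1 and 0.1 for Mylpf at 8 weeks and 0.2 for Tpm2 and 0.09 for Casq1 at 16 weeks. The median of all genes was then 0.10 at 8 weeks, and -0.24 at 8 and -0.21 at 16 weeks with a common median. The common median gave 5 other muscle genes lower at 16 weeks, 2159 probe sets passing at 8 weeks, 3 and 4 shared genes of like pattern, and -0.01 for Cela1 at 16 weeks. A floor at the 20th percentile, or none, left 6 shared genes with group means removed. With these 2 settings Acta1 moved from -1.27 to -1.65 and -2.28 at 8 weeks (limma adjusted p 0.131 and 0.0936). At 16 weeks it moved from -4.33 to -5.32 and -6.59. Without a filter 2 other muscle genes were higher at 16 weeks, and 3 and 1 genes of like pattern were shared. A filter at the 60th percentile kept 2 members, with means of -1.1 and -3.5, and left 1 higher and 1 lower other muscle gene at 8 weeks, 2 and 1 at 16 weeks, and 5 shared genes with group means removed.

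Array weights gave 6 lower other muscle genes at 16 weeks, 2358 and 3749 probe sets at 8 and 16 weeks, and log2 differences of 0 for Myh4 and -0.34 for Myoz1. A trended, robust variance gave 2 higher other muscle genes at 8 weeks. The 6 arrays of the age alone gave 2 higher at 16 weeks and 1310 probe sets. With the actin 3' to 5' ratio as covariate the members' mean was 0.28 at 8 and -0.76 at 16 weeks, 443 and 401 probe sets passed, and 1 other muscle gene was lower at 8 weeks, 1 higher and 1 lower at 16 weeks. Under it Acta1, Myl1, Atp2a1, Ckm and Mylpf had 0.1, 0.19, 0.94, -0.16 and 0.31 at 8 weeks, Ckm -0.09 at 16 weeks, and Actc1, Tpm2, Casq1 and Alas2 0.63, 1.46, 0.9 and -0.46. Without Ckm, an alternative chosen after seeing the data, the members' mean at 16 weeks was -2.42. A replicate block, whose numbers pair no samples, gave 1029 and 2077 probe sets at 8 and 16 weeks and 3 higher other muscle genes at 8 and 4 at 16 weeks, beside 4 and 5 without the block. Causes of these changes were not tested. Probe sets below the floor, among them Acta1 in every db/db kidney, have no measured level there.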
